A study of Mus musculus with 12 samples.

Results

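The comparison described here is that of male mice lacking Cyp2e1 with male wild type mice, in liver. Its members are 6 of the 12 libraries of the series, 3 male knockout and 3 male wild type, chosen by their labels, and the test covered the 14003 of 56748 genes that were not too low in counts. All mice were 16 weeks old, fed normal chow and housed together, and liver RNA was selected by its poly(A) tail. Wild type males were of the inbred line 129S1/SvImJ. Knockout males were of the line 129/Sv-Cyp2e1tm1Gonz/J, which carries a targeted Cyp2e1 allele in the germ line, so the line and the genotype cannot be told apart in any difference given here. The female groups of the same lines, also 3 and 3, entered the fit and serve for comparison. The labels call the libraries of a group biological replicates.

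Cyp2e1 encodes a cytochrome P450 of the endoplasmic reticulum that oxidises ethanol, acetone, acetaminophen and other small molecules, and in liver it is made mostly by hepatocytes around the central vein. Other P450s of the Cyp4a family hydroxylate fatty acids at the end of the chain and are induced by the fatty acid receptor PPARalpha. Mouse liver also differs between the sexes: the pattern of growth hormone pulses keeps many P450, urinary protein and lipid genes at male or female levels.

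The male libraries held 15167730 to 21425518 counts, and within each group the libraries differed from one another beyond counting error (chi-square over its degrees of freedom, 37.9 to 141). Hepatocyte identity genes such as Alb and Ttr were at high levels in all 6, with a summed level over 10 genes of 88649 to 101379 CPM (counts scaled to a common library size) in wild type and 88004 to 105427 in knockout. Of these 10 genes edgeR and DESeq2 called 0 and limma-voom 3 (28.4% of all genes), and 0 had an unadjusted p under 0.05 (4.84% of all genes). Among the 6 male libraries alone, with the 2000 genes of highest variance, principal component 1 (48.7% of variance) mixed the genotypes, and component 2 (22.0%) held the wild type at -19.8 to -8.94 and the knockout at 6.78 to 30.5. On component 1, wild type replicate 3 (-40.6) and knockout replicate 2 (-25.8) stood apart from the rest (-3.86 to 29.1). These are also the male libraries whose counts lean most to short genes, relative to the mean of all 12 libraries. The length slope is that of log2 CPM, minus the gene's mean over the 12 libraries, on log2 gene length. It was -0.12 and -0.15 in these 2 libraries and between -0.03 and 0.13 in the other 4. Counts are therefore also given without both. Genes of the mitochondrial genome took 2.23% to 3.67% of the counts in wild type and 3.73% to 4.40% in knockout males, and the part of that shift in the results below was not tested. In bulk tissue, fewer cells of a type and less RNA per cell cannot be told apart.

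Few genes passed the test. By edgeR's quasi-likelihood test, 8 of 14003 genes (0.0571%) changed at a Benjamini-Hochberg adjusted p under 0.05, 4 higher (0.0286%) and 4 lower (0.0286%) in the knockout. Higher were the fatty acid hydroxylase genes Cyp4a10, Cyp4a14 and Cyp4a31 and the isoprenoid enzyme Fdps. Lower were Cyp2e1, the glyoxalase Glo1, the lipocalin Obp2a and the long noncoding RNA Gm10503. Without an adjustment 678 genes (4.84%) had a p under 0.05, 423 higher (3.02%) and 255 lower (1.82%). The median log2 fold change over all genes was -0.00. In 1347 genes (9.62%) the 3 libraries of one genotype lay wholly above those of the other, 714 with the knockout above (5.1%) and 633 with it below (4.52%). A fold change over 2 was fitted for 543 genes, of which 8 passed. The count depended on the fit: DESeq2 called 34 genes (0.253%), limma-voom 3983 (28.4%) and edgeR with no filter on low counts 101, each with all 8 among them, and a fit to the 6 male libraries alone called 1, Cyp2e1. Without both wild type replicate 3 and knockout replicate 2 there were 9 calls, 7 of them from the 8, with Glo1 lost. With 1 library left out there were 5, 18 and 5 calls (wild type replicates 1, 2 and 3) and 6, 14 and 6 (knockout replicates 1, 2 and 3).

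**Figure D1:**
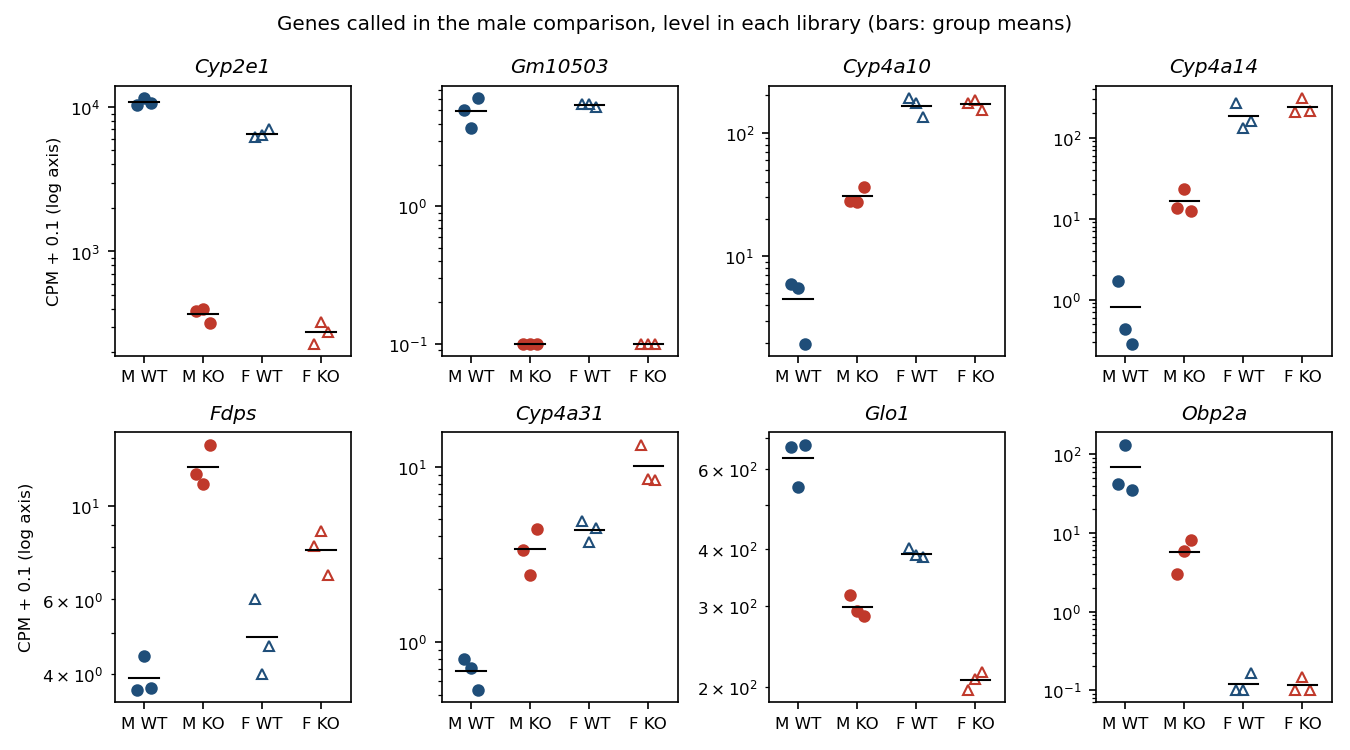
Level of the 8 called genes in each of the 12 libraries, as CPM plus 0.1 on a log axis, with males (M) as filled circles, females (F) as open triangles, wild type (WT) in blue, knockout (KO) in red and a bar at each group mean. The male groups do not overlap in any of the 8 panels, and the 4 gene panels Cyp2e1, Gm10503, Glo1 and Obp2a show the knockout males below the wild type males.

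Cyp2e1 checks the labels. In wild type males it stood at 10374, 11480 and 10700 CPM, and in knockout males at 389, 403 and 318 CPM. Knockout males kept 3.41% of the wild type level, with 19590 counts over the 3 libraries against 599416. The log2 fold change was -4.87 ± 0.21 (SE, n = 3 per group, edgeR adjusted p = 4.59e-08) and lay between -4.94 and -4.78 under every alternative run. Around the gene on chromosome 7 nothing else was called: within 5 Mb, edgeR called 0 of 87 genes besides Cyp2e1, with 4 (4.60%) at an unadjusted p under 0.05. Enzymes that share its substrates did not pass by edgeR or DESeq2 either. Of 14 genes of ethanol and acetaldehyde oxidation edgeR called 0 and DESeq2 0, and limma-voom called 1 (28.4% of all genes). None had an unadjusted p under 0.05 (4.84% of all genes), and the median was -0.00. Adh1, the main liver alcohol dehydrogenase, had 1548, 1731 and 1551 CPM in wild type and 1816, 1803 and 1775 in knockout (0.16 ± 0.15).

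The 3 Cyp4a genes that rose are neighbours on chromosome 4 and encode omega-hydroxylases of fatty acids. Cyp4a10 (ENSMUSG00000066072, chromosome 4, 115375461 to 115390846, mm39) stood at 5.90, 5.42 and 1.86 CPM in wild type and 27.9, 27.6 and 36.0 CPM in knockout males. Every knockout library was over 4 times the highest wild type library, and the fold change was 2.78 ± 0.33 (edgeR adjusted p = 0.00497). Cyp4a14, which lies 22.1 kb away, had 1.59, 0.335 and 0.186 CPM in wild type and 13.5, 23.0 and 12.4 CPM in knockout (4.44 ± 0.55, edgeR adjusted p = 0.00654). Its wild type level rests on 43 counts in all, most of them in replicate 1. Cyp4a31, at 30.0 kb, had 0.703, 0.615 and 0.434 CPM against 3.24, 2.32 and 4.34 CPM (2.48 ± 0.34, edgeR adjusted p = 0.0112), or 33 counts against 185. Among the 6 fits that each omit 1 library it was called in 3, and not without wild type replicate 1, wild type replicate 3 or knockout replicate 3, while Cyp4a10 and Cyp4a14 were called in all 6. These genes resemble one another closely, and no source used here says how reads were divided among them.

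Other genes of the cluster and the family did not pass by edgeR. Cyp4a32, the next gene along, had 5.90, 15.3 and 5.08 CPM in wild type and 11.1, 11.5 and 14.5 CPM in knockout, with overlapping groups (0.50 ± 0.37). The male-type hydroxylases Cyp4a12a (640 ± 162 and 640 ± 209 CPM, 0.00 ± 0.37) and Cyp4a12b (-0.23 ± 0.30) did not pass. Of the 14 listed Cyp4 genes 13 were tested, edgeR and DESeq2 called 3, all higher, limma-voom called 5, and the list's median was 0.05 against -0.00 for all genes. Other targets of PPARalpha did not pass by edgeR or DESeq2: of 46 tested genes of that list and of fatty acid oxidation edgeR and DESeq2 called 0 and limma-voom 13, 3 had an unadjusted p under 0.05 (1 higher, 2 lower), and the median was -0.03. Crat, which moves acetyl groups on and off carnitine, had 11.9, 12.4 and 6.20 CPM in wild type and 21.7, 15.6 and 28.1 in knockout (1.10 ± 0.31, edgeR adjusted p = 0.637). Angptl4, a lipase inhibitor induced by fasting, had 97.9, 72.2 and 150 CPM against 39.0, 81.5 and 73.8 (-0.72 ± 0.28, edgeR adjusted p = 0.922). The called pair Cyp4a10 and Cyp4a14 is also on the list of female-biased liver genes, where they were the 2 called by edgeR of 34 tested. DESeq2 called 4 of that list and limma-voom 9, and 7 had an unadjusted p under 0.05, 6 of them higher. Over all genes the shares beside the counts of these lists are 0.0571% by edgeR, 0.253% by DESeq2 and 28.4% by limma-voom. An unadjusted p under 0.05 was had by 4.84%, with 3.02% higher and 1.82% lower. In females Cyp4a10 and Cyp4a14 were far above the male level in either genotype, at 135 to 189 CPM (Cyp4a10) and 132 to 268 CPM (Cyp4a14) in wild type and 151 to 185 and 206 to 307 CPM in knockout. Cyp4a31 rose in females too. It had 4.77, 3.63 and 4.37 CPM in wild type and 13.2, 8.43 and 8.25 CPM in knockout females (1.22 ± 0.28, edgeR adjusted p = 0.0140). The female comparison called 36.5% of all genes by edgeR.

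The list of cholesterol synthesis and uptake genes stood higher in knockout males, although edgeR called 1 of them. Fdps, which makes the farnesyl diphosphate from which sterols are built, had 3.56, 4.30 and 3.60 CPM in wild type and 11.8, 11.1 and 13.8 CPM in knockout males. All knockout libraries were over 2 times the highest wild type library, and the fold change was 1.68 ± 0.22 (edgeR adjusted p = 0.00755), from 211 counts against 669. It lost its call without wild type replicate 1 or 3. Fdps was also higher in knockout females, with 7.91, 8.61 and 6.75 CPM against 5.91, 3.89 and 4.57 CPM in wild type females. The female effect was 0.69 ± 0.21 (edgeR adjusted p = 0.0253). The list is wider than its name: it also holds the sterol exporters Abcg5 and Abcg8 and the regulators Insig1 and Mylip. These are counted with the rest in all its figures, so the figures do not stand for synthesis alone. Of its 29 tested genes edgeR called 1 higher and 0 lower, DESeq2 called 2 and limma-voom 23 (28.4% of all genes). A positive fold change was fitted for 28. The median was 0.53 against -0.00 for all genes, and 11 had an unadjusted p under 0.05, all higher (3.02% of all genes). In 13 of the 29 the knockout lay above the wild type without overlap, against 5.1% of all genes, and in 0 below. The summed level of the list was 3965 to 5271 CPM in wild type and 6498 to 6839 CPM in knockout males. These genes share regulators and libraries, so they are not independent of one another.

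Along the pathway the values were as follows, none of them past edgeR's test after adjustment. Hmgcs1, which makes HMG-CoA, had 80.1, 133 and 325 CPM in wild type and 466, 396 and 416 in knockout (1.25 ± 0.53, edgeR adjusted p = 0.98), and its wild type libraries spread widely. Sqle, which oxidises squalene, had 80.6, 107 and 132 CPM against 210, 151 and 183 (0.77 ± 0.24, edgeR adjusted p = 0.779). Lss, which closes the sterol ring, came nearest to passing: 46.6, 66.8 and 60.5 CPM in wild type and 128, 125 and 143 CPM in knockout (1.18 ± 0.23, edgeR adjusted p = 0.189). With the libraries' length slope in the model its edgeR adjusted p was 0.0433 (1.18), but with the length trend removed it was 0.374 (1.09). Further down, Hsd17b7 (0.62 ± 0.17), Sc5d (0.62 ± 0.19) and Dhcr7 (0.79 ± 0.28) were also without overlap. Srebf2, a transcription factor of the pathway, was at 0.53 ± 0.30. Tm7sf2, a sterol reductase, was the 1 gene with a negative value (-0.03 ± 0.21). The single libraries' medians, relative to the wild type mean, were -0.16, 0.02 and 0.22 in wild type and 0.58, 0.46 and 0.59 in knockout. The list's median stayed between 0.45 and 0.71 over the 16 settings other than limma-voom, was 0.63 with the length slope in the model, and was 0.67 without wild type replicate 3 and knockout replicate 2.

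**Figure D2:**
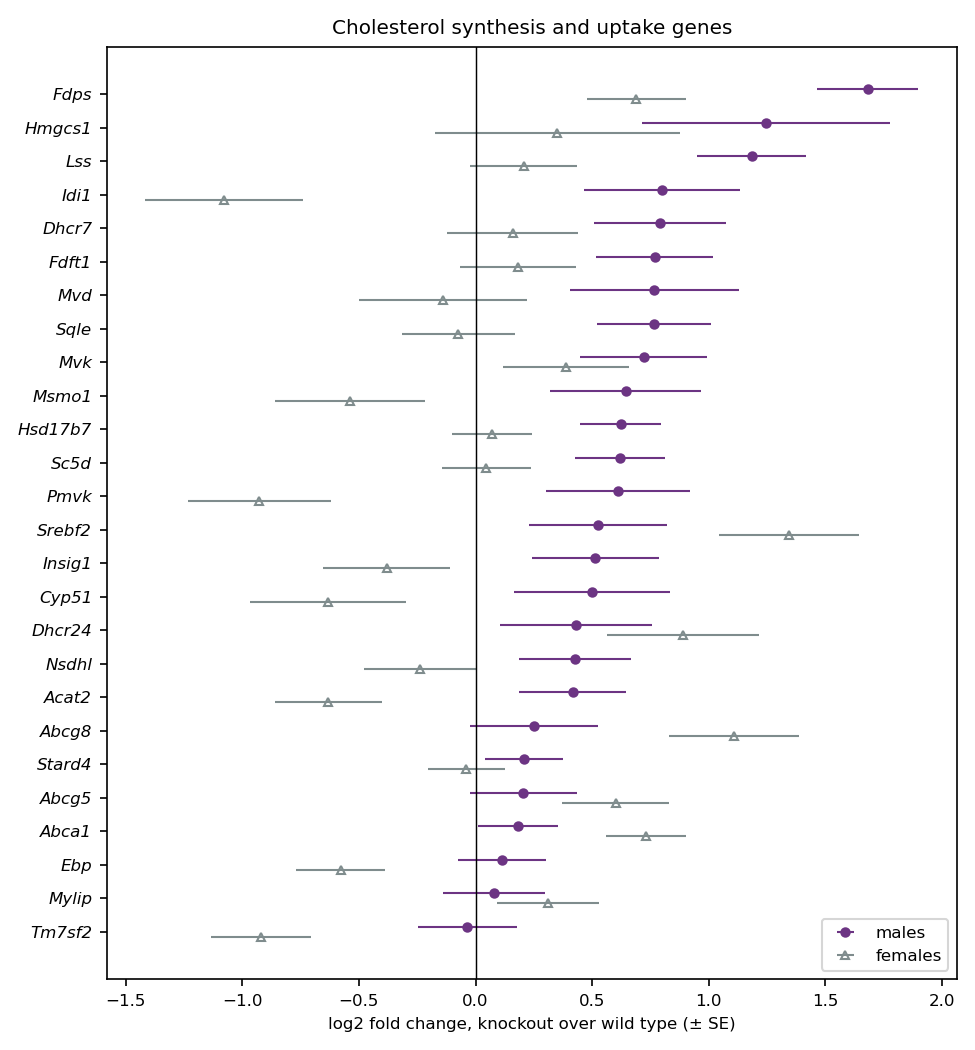
Fitted log2 fold change of 26 of the 29 genes of cholesterol synthesis and uptake, knockout over wild type, in males (filled circles) and females (open triangles), with bars of 1 SE. The male values lie right of 0 for all genes shown but Tm7sf2, while the female values lie on both sides; the medians over all 29 genes are 0.53 and 0.07.

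The start regions of Lss and Hmgcs1 are shown because the list's genes stood higher together. Both genes are members beside Fdps with a fitted change over 2-fold, and edgeR called neither. Many of the list's genes are known targets of the factor that Srebf2 encodes, but its part in the male values was not tested. The regions are RefSeq windows of 250 bases before to 50 bases after the start (GRCm38.p6, read on the gene's strand). Capitals mark matches, on either strand, to CCAAT and to the sterol element core TCACNCCAC, none of which overlap here.
Lss, chr10:76531355-76531654, plus strand: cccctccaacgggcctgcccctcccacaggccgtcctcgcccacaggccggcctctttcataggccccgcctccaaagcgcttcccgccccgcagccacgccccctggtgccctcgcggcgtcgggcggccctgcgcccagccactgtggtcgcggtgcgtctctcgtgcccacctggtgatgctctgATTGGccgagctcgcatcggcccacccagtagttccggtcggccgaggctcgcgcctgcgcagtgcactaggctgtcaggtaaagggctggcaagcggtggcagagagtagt
Hmgcs1, chr13:119690101-119690400, plus strand: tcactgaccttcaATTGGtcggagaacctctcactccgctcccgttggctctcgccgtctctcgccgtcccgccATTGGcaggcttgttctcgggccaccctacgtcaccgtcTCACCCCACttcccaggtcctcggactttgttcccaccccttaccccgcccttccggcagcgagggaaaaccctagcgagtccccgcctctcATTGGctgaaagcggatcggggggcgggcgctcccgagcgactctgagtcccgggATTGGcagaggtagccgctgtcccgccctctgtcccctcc
Lss held 1 CCAAT match and 0 core matches. Hmgcs1 held 4 CCAAT matches and 1 core match, 137 bases before the start. Among 32851 windows of all genes 1.24% held the core and 37.4% held CCAAT. Of the 29 list genes 21 had windows, 25 in all, of which 1 (4%) held the core and 19 (76%) held CCAAT. Fdps, the list's gene called by edgeR, had no window, and these shares were not tested.

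Glo1 and Gm10503, both lower, lie 294 kb apart on chromosome 17. Glo1 (ENSMUSG00000024026, 30803910 to 30845845, mm39), the enzyme that clears methylglyoxal with glutathione, had 672, 548 and 678 CPM in wild type and 317, 293 and 285 CPM in knockout males. The knockout libraries were close together and all below the wild type ones (-1.08 ± 0.15, edgeR adjusted p = 0.0128). The size hardly moved with 1 library left out (-1.18 to -1.02), but the call held in 2 of those 6 fits, without wild type replicate 2 or knockout replicate 2. With the length trend removed the adjusted p was 0.0504. The pseudogene Glo1-ps on chromosome 2 had 95.0, 74.6 and 69.3 CPM in wild type and 85.4, 71.7 and 73.7 in knockout (-0.05 ± 0.21). Females had the same direction for Glo1, with 384 to 402 CPM in wild type and 196 to 215 CPM in knockout (-0.92 ± 0.15, edgeR adjusted p = 0.0132). Gm10503 (ENSMUSG00000117786, 31139312 to 31182194) had 4.96, 3.63 and 6.01 CPM in wild type males and 0 counts in all 3 knockout males. With 268 counts against a floor of 3 over the group it was at least 86.8-fold lower, a bound that covers counting error only. It was 0 in all 3 knockout females too, against 5.21 to 5.43 CPM in wild type females. The genes around them did not pass by edgeR: Dnah8, a dynein chain that overlaps Glo1, was at -0.32 ± 0.59, Btbd9 at -0.27 ± 0.23, and the cholesterol exporter Abcg1, 94.5 kb from Gm10503, at 0.23 ± 0.30. The noncoding RNA Gm50240, 2.3 kb from Glo1, was at -0.82 ± 0.47 in males and -1.59 ± 0.47 in females, from 1.83 and 1.05 CPM in wild type and knockout males. Pde9a, 423 kb from Gm10503, was at 0.46 ± 0.20 (edgeR unadjusted p = 0.0357). Within 500 kb, 2 of 6 tested neighbours of Glo1 and 4 of 8 of Gm10503 were higher. Of 18 genes that clear reactive carbonyls, Glo1 was the 1 call by edgeR and by DESeq2, limma-voom called 4 (28.4% of all genes), and their median was -0.09.

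Obp2a (ENSMUSG00000062061, chromosome 2, 25590055 to 25593338, mm39), a secreted lipocalin on the list of male-biased genes, was the other gene that fell. Wild type males had 42.2, 132 and 35.5 CPM and knockout males 2.91, 5.72 and 8.16 CPM. The lowest wild type library was over 4 times the highest knockout library (-3.64 ± 0.52, edgeR adjusted p = 0.0139). In females it was near 0 in both genotypes, at 0 to 0.0643 CPM. The call was lost without knockout replicate 1. Of 33 male-biased genes tested edgeR and DESeq2 called 1 and limma-voom 10 (28.4% of all genes). Among them 3 had an unadjusted p under 0.05, all lower (1.82% of all genes), and the median was -0.00. Mup11 was high in a single library, at 724 CPM in wild type replicate 3 and 4.07 to 12.2 CPM in the other 5 (edgeR adjusted p = 0.644), and reads of urinary protein genes are hard to divide among near-identical copies.

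The male and female effects were compared directly. By edgeR 0 of 14003 genes (0%) differed in effect between the sexes at an adjusted p under 0.05, with 3145 (22.5%) at an unadjusted p under 0.05. Limma-voom called 4417 of the same 14003 and DESeq2 218 of fewer genes. DESeq2 gave some genes no adjusted p for this difference, among them Cyp4a10, Cyp4a31, Fdps, Gm10503 and Obp2a. The difference was 2.75 ± 0.44 for Cyp4a10 (edgeR adjusted p = 0.123) and 4.07 ± 0.69 for Cyp4a14 (0.138), against a female effect of 0.04 and 0.37. Without adjustment p was 2.65e-05 and 4.93e-05. The call for these genes differed by fit: limma-voom and edgeR with no filter called both, DESeq2 called Cyp4a14 and gave Cyp4a10 no adjusted p, and the length slope in the model called Cyp4a10 (adjusted p = 0.0342) and not Cyp4a14 (0.18). With 1 library left out edgeR called the difference of Cyp4a14 without wild type replicate 1 (adjusted p = 0.0156) and that of Cyp4a10 without wild type replicate 3 (adjusted p = 0.0261). For Cyp2e1 (-0.31 ± 0.25), Glo1 (-0.16 ± 0.21) and Fdps (0.99 ± 0.30) it did not pass by edgeR, while limma-voom called it for Fdps. Bcl6, a repressor that holds down female-type genes, had opposite signs in the sexes, but the difference did not pass by edgeR (-3.43 ± 0.57, edgeR adjusted p = 0.138). Males had 20.2, 13.7 and 18.7 CPM in wild type and 4.97, 5.07 and 5.31 in knockout (-1.77 ± 0.40, edgeR adjusted p = 0.385). DESeq2 called the male fall of Bcl6 (adjusted p = 0.0118), as did limma-voom. Females had 3.02, 2.87 and 5.53 CPM in wild type and 19.5, 11.4 and 5.02 in knockout (1.66 ± 0.41, edgeR adjusted p = 0.0145). Female knockout replicate 3 lay within the wild type range. The female comparison itself had 5116 calls (36.5%).

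Each result was checked against the libraries' trend with gene length. The length slope was -0.02 ± 0.11 (SD, n = 3) in wild type and 0.02 ± 0.15 in knockout males, a difference of 0.03 log2 units per doubling of length (exact permutation test, two-sided p = 0.8, smallest possible 0.1). In females the difference was 0.30 (exact permutation test, two-sided p = 0.1). Length accounted for 0.913% of the variance of the male effect over genes and 18.2% of the female one, and the male median was -0.04 among the shortest 2802 genes and 0.08 among the longest 2800. With each library's slope in the model 18 genes were called, among them all 8. Among the 10 that joined were Lss, Cyp2a4, Hsd17b11, Nudt9, Ccdc50 and Dock6 (higher) and Orm3, Lipg and Atp8b5 (lower), and DESeq2 also called all 18. The other length correction differed. With the length trend removed, Orm3 was the only one of these named genes called (edgeR adjusted p = 0.0109). The rest lay between 0.110 (Lipg) and 0.563 (Ccdc50), and Glo1 lost its call. Cyp2a4, a steroid hydroxylase with a near-identical neighbour, had 121, 118 and 56.0 CPM in wild type and 297, 151 and 354 in knockout (1.44 ± 0.32). Orm3, an acute phase orosomucoid, had 21.5, 21.7 and 25.6 CPM against 10.4, 13.0 and 7.46 (-1.16 ± 0.22), and Lipg, endothelial lipase, 14.4, 9.22 and 19.1 against 4.16, 3.55 and 5.41 (-1.69 ± 0.32). Some lists differed more within the genotypes than between them. The 78 ribosomal protein genes had library medians of 0.47 in wild type replicate 3 and 0.75 in knockout replicate 2 but -0.49 in wild type replicate 2 and -0.54 in knockout replicate 3, with a list median of 0.02.

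**Figure D3:**
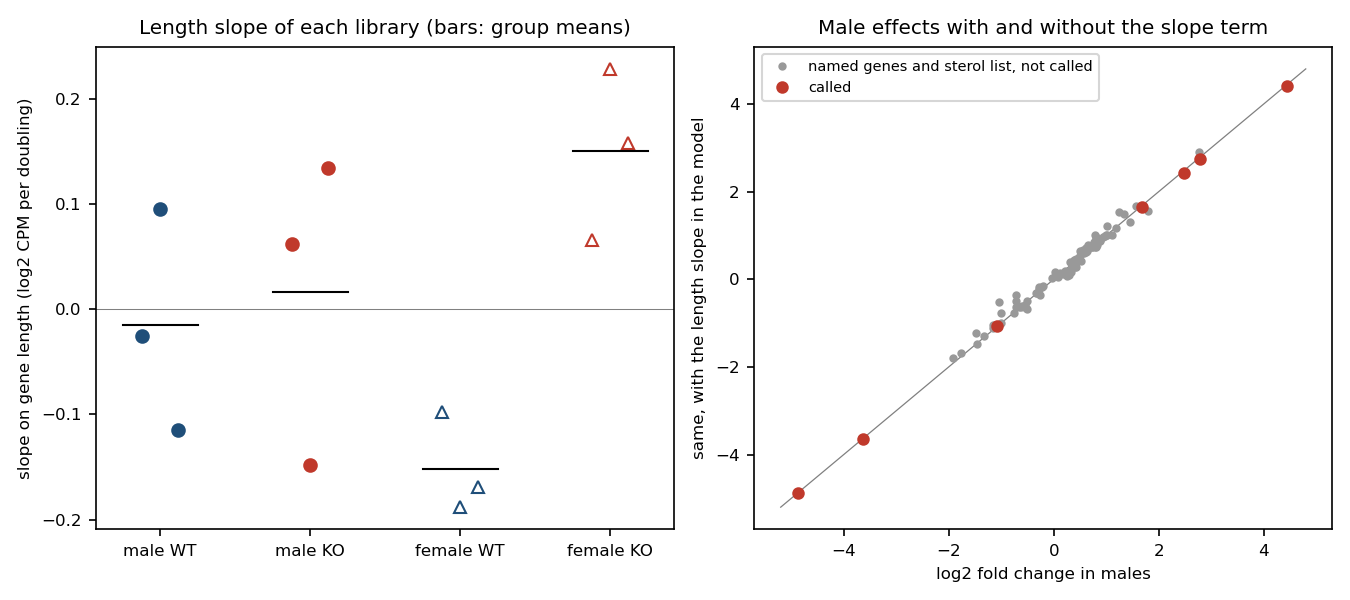
Left, slope on log2 gene length of each library's log2 CPM minus the gene's mean over all 12 libraries, with a bar at each group mean. Right, male log2 fold change of the called genes other than Gm10503 (red), of other named genes and of the sterol list (grey), without (x axis) and with (y axis) the slope in the model. The male groups overlap in slope, from -0.12 to 0.10 in wild type and -0.15 to 0.13 in knockout, and the called genes lie close to the line of equal values.

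A further set of genes divided the wild type males themselves. Cish and Socs2, feedback inhibitors induced by growth hormone through STAT5, were high in wild type replicate 2 and in all knockout libraries. Cish had 3.51, 67.0 and 3.91 CPM in wild type and 47.2, 45.9 and 43.8 CPM in knockout males. Socs2 had 7.03, 43.6 and 5.89 CPM against 16.7, 28.7 and 30.8. The transcription factors Myc (2.34, 48.4 and 3.04 CPM against 29.7, 41.2 and 20.0) and Foxq1 (6.42, 101 and 4.65 against 68.4, 58.4 and 55.3) had the same order. So had Hhex, a regulator of the hepatocyte lineage, with 36.3, 149 and 39.9 CPM against 144, 116 and 103. By edgeR none of them passed with all libraries, and in each of these 5 genes wild type replicate 2 lay above every knockout library. Limma-voom called all 5, but its sample weights were 0.41 for wild type replicates 2 and 3 against 5.54 for replicate 1. Its calls here therefore rest little on wild type replicate 2. Without wild type replicate 2 the count of calls by edgeR was 18, and Cish, Myc, Foxq1, Hhex, Phlda1, Foxa2, Arid5b and Slc25a47 were among the 10 genes added. These genes were chosen after their values were seen.

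**Figure D4:**
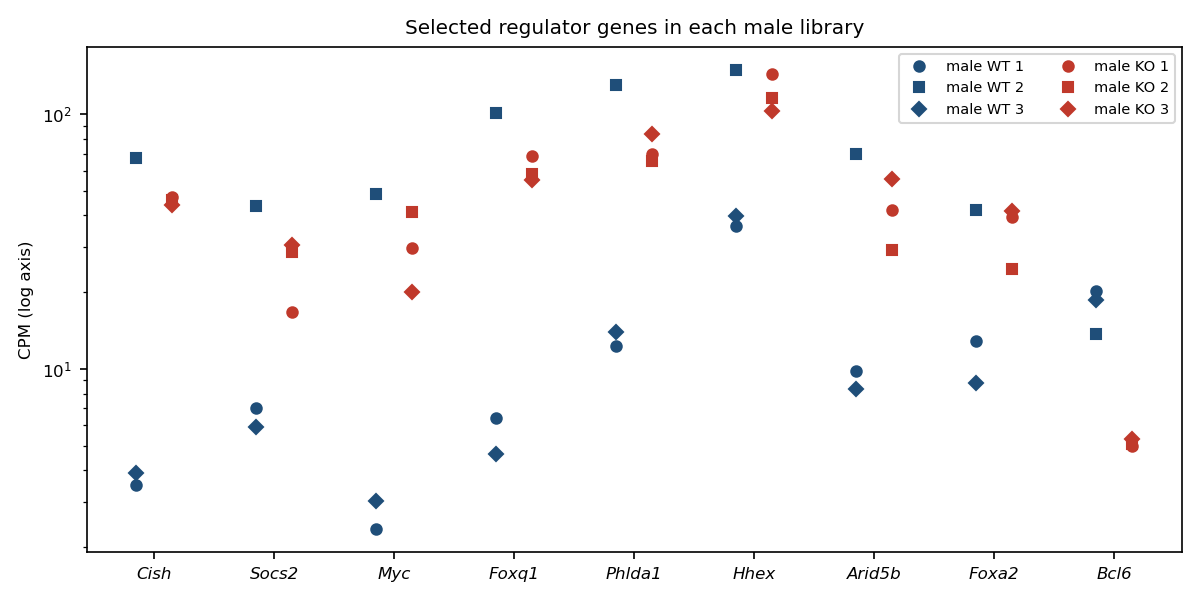
CPM on a log axis of 9 regulator genes in the 3 wild type (blue) and 3 knockout (red) male libraries, with the replicate shown by the marker's shape. Wild type replicate 2 (blue square) sits with the knockout libraries for the first 8 genes, for Cish at 67.0 CPM against 3.51 and 3.91 in the other wild type libraries, while for Bcl6 it lies with its own group.

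Other metabolic lists had few or no calls. Over all genes the calls to read these counts against are 0.0571% by edgeR, 0.253% by DESeq2 and 28.4% by limma-voom, with 4.84% at an unadjusted p under 0.05. Of 43 drug and steroid P450 genes edgeR called 0, DESeq2 1 and limma-voom 15. Of the 43, 6 had an unadjusted p under 0.05, 5 of them higher (3.02% of all genes), and the median was 0.11. Cyp2d12 had 3.04, 1.68 and 2.29 CPM in wild type and 4.86, 4.27 and 4.43 in knockout (0.94 ± 0.27, edgeR adjusted p = 0.653). Conjugating enzymes stayed near the median of all genes: -0.09 over 22 glutathione S-transferases (edgeR 0, DESeq2 0, limma-voom 5 called, 1 unadjusted) and 0.04 over 32 genes of glucuronidation, sulfation and acetylation (0, 0 and 12 called, 1 unadjusted). The 34 antioxidant and Nrf2 target genes had a median of -0.10 (0, 0 and 9 called, 1 unadjusted), with the metal-binding Mt1 at 51.8, 78.0 and 44.8 CPM against 15.3, 22.5 and 31.8 (-1.32 ± 0.48, edgeR adjusted p = 0.863). Of 26 lipogenesis genes 0, 0 and 15 were called and 4 had an unadjusted p under 0.05, 2 each way. Scd1, the desaturase of stearate, had 1853, 491 and 461 CPM in wild type and 311, 361 and 347 in knockout (-1.46 ± 0.44, edgeR adjusted p = 0.758), with wild type replicate 1 far above the others. Mlxipl, the carbohydrate-sensing factor ChREBP, had 84.5, 68.3 and 57.5 CPM against 120, 150 and 146 (0.98 ± 0.28, edgeR adjusted p = 0.653). Bile acid genes had a median of -0.01 over 26 (0, 0 and 11 called, 1 unadjusted), gluconeogenesis and fasting genes -0.20 over 20 (0, 0 and 10 called, 3 unadjusted), and methionine and one-carbon genes -0.04 over 21 (0, 0 and 6 called, 2 unadjusted). G6pc, the last step of glucose release, spread over 423, 80.6 and 514 CPM in wild type and 71.6, 159 and 136 in knockout (-1.48 ± 0.53, edgeR adjusted p = 0.863).

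Respiratory chain genes were listed by the genome that encodes them, and the lists were not tested against each other. Over 77 nuclear-encoded subunits the median was -0.08, with 0 genes at an unadjusted p under 0.05 (4.84% of all genes). EdgeR and DESeq2 called 0 of them and limma-voom 43 (28.4% of all genes), and with 1 library left out the median ranged to -0.46 (without knockout replicate 2) and 0.10 (without wild type replicate 3). Over the 13 mitochondrially encoded subunits the median was 0.53, 7 lay above the wild type without overlap (5.1% of all genes) and 0 below (4.52%), edgeR and DESeq2 called 0, limma-voom 1, and 1 had an unadjusted p under 0.05. mt-Atp6, a subunit of ATP synthase, had 68.0, 53.5 and 33.3 CPM in wild type and 96.6, 92.8 and 120 in knockout (1.00 ± 0.47). Without wild type replicate 3 and knockout replicate 2 the median was 0.27.

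Zonation, stress and clock lists gave no call by edgeR. The shares of all genes called, to set beside the counts, are 0.0571% by edgeR, 0.253% by DESeq2 and 28.4% by limma-voom. An unadjusted p under 0.05 was found for 4.84% of all genes, with 1.82% lower. Pericentral genes, the zone where Cyp2e1 is made, had a median of 0.08 over 24 (edgeR and DESeq2 0, limma-voom 9 called, 0 unadjusted), and periportal and urea cycle genes -0.13 over 23 (0, 0 and 9 called, 3 unadjusted). Endoplasmic reticulum stress genes had a median of 0.18 over 28 (0, 0 and 15 called, 4 unadjusted), with the chaperone Dnajb9 at 56.8, 48.5 and 62.7 CPM in wild type and 28.3, 42.7 and 35.3 in knockout (-0.66 ± 0.19, edgeR adjusted p = 0.653). For 33 acute phase and complement genes it was -0.10 (0, 1 and 15 called, 4 unadjusted, all lower), with Saa4 at 520, 505 and 599 CPM against 363, 333 and 365 (-0.62 ± 0.17, edgeR adjusted p = 0.642). Interferon response genes (0.05 over 35, 0, 0 and 8 called, 2 unadjusted), heme and iron genes (-0.00 over 29, 0, 0 and 13 called, 2 unadjusted), clock genes (0.06 over 21, 0, 0 and 5 called, 1 unadjusted) and the growth hormone axis (0.11 over 16, 0, 1 and 7 called, 2 unadjusted) were near the median of all genes. P450 regulators and partners had 0.14 over 14 (0, 0 and 5 called, 0 unadjusted) and cell cycle genes -0.29 over 23 (0, 0 and 7 called, 2 unadjusted).

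Markers of cells other than hepatocytes were compared as well, and edgeR and DESeq2 called 0 of them. Beside the counts below, limma-voom called 28.4% of all genes, and 4.84% of all genes had an unadjusted p under 0.05. Stellate cell and fibrosis markers had a median of 0.38 over 15 of 17 genes (limma-voom 9 called, 2 unadjusted), 0.21 with the length slope in the model, and summed levels of 281 to 309 CPM in wild type and 288 to 431 CPM in knockout. Lrat, the retinol esterase of stellate cells, had 6.60, 9.45 and 12.2 CPM against 16.8, 17.2 and 15.6 (0.81 ± 0.32, edgeR adjusted p = 0.923). Kupffer cell and macrophage markers had a median of 0.03 (16 genes, limma-voom 2 called) and sinusoidal endothelium 0.06 (15 genes, 2 called), both with 0 at an unadjusted p under 0.05 and overlapping sums. Limma-voom called 2, 3 and 0 in the next 3 lists. Lymphocyte and neutrophil markers (0.23, 10 of 17 genes tested, with summed levels of only 9.67 to 22.7 CPM), cholangiocyte markers (-0.16, 9 of 11) and erythroid markers (-0.49, 5 of 9) also had 0 unadjusted. The erythroid sum was 426 to 2081 CPM in wild type and 421 to 863 CPM in knockout. Of 14 adipose, pancreas and muscle markers 2 were tested. The part of any of these in the results above was not tested.

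**Figure D5:**
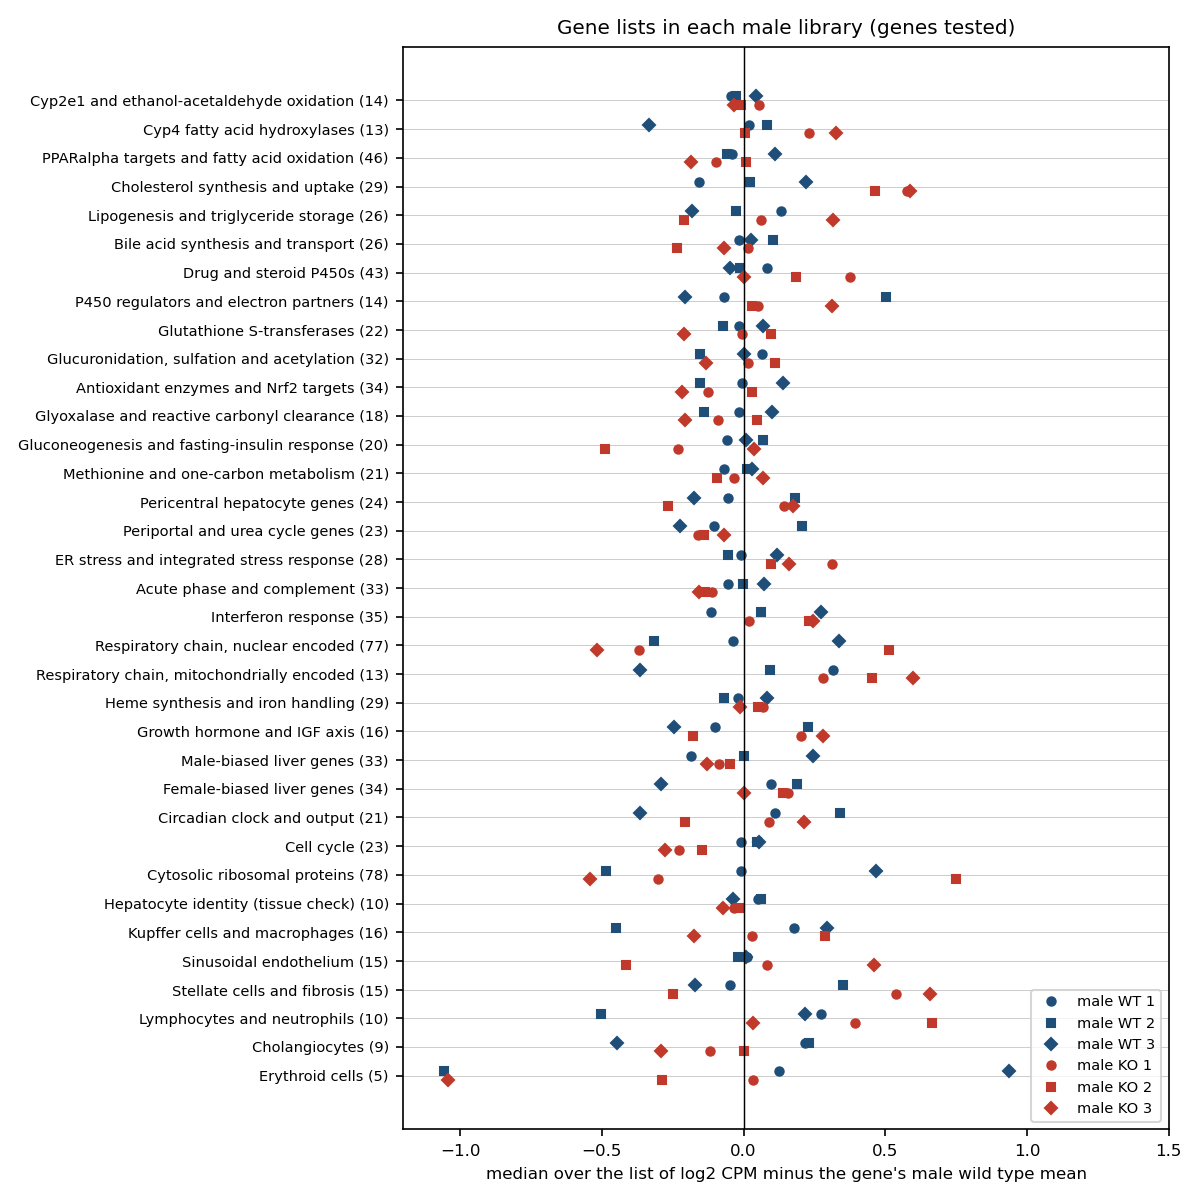
Median over each gene list of the log2 CPM minus the gene's male wild type mean, for each wild type (blue) and knockout (red) male library, with replicates as circles (1), squares (2) and diamonds (3) and the number of tested genes in brackets. The 3 knockout libraries lie at 0.46 to 0.59 for cholesterol synthesis and uptake, above all wild type libraries, while ribosomal proteins run from -0.54 to 0.75 with both genotypes at either end.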

How the data were processed

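Liver RNA of 12 libraries (4 groups of 3) was analysed from the table of raw counts per gene that the authors deposited. Per the submitters' processing notes, HISAT2 2.0.5, DESeq2 and the build mm39 were used. No source used here states how reads were counted or on which strand. Each column was assigned by the library number shared with the labels, and Ddx3y and Xist matched the labelled sex.

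Genes were kept by edgeR's filterByExpr (14003 of 56748, holding 99.9% of counts). edgeR 4.0.16 in R 4.3.3 fitted TMM-scaled counts with 1 mean per group over all 12 libraries (8 residual degrees of freedom, prior 5.22, biological coefficient of variation 25.9%) and tested knockout minus wild type males by the quasi-likelihood F test with Benjamini-Hochberg adjustment. Standard errors were the fold change over the square root of F and are approximate. A log2 CPM used a prior count of 2. Alternatives were DESeq2 1.42.0, limma-voom 3.58.1 with sample weights, other scalings and filters, a length slope in the model or a length trend removed (lowess, span 0.3), left-out libraries and a replicate block. Scripts were tested on simulated data. Promoter windows came from RefSeq (GRCm38.p6).

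The comparison and the 36 gene lists were chosen with earlier results of these data known. All called genes were named, and for lists without a call up to 2 members of smallest p. Other genes were chosen after their values were seen. A few genes, kept in every fit and count, are not reported here by name. P-values set a difference against the spread between the sampled mice of each line. In the main fit that spread was estimated over all 12 libraries, females included.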

Additional observations from a re-analysis of the deposited data

How the results depend on the processing

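The 8 calls were 8 with RLE or upper-quartile factors, 6 with at least 50 counts on average and 8 with the length trend removed (Glo1 lost, Orm3 gained). Gm10503 and Cyp4a31 lay under the filter of 50 counts and were not tested in that setting. The count moved with no filter (101 calls, 57 higher and 44 lower, over 25594 genes), with the 6 male libraries alone (1, 0 higher and 1 lower), with DESeq2 (34, 22 and 12), with limma-voom and sample weights (3983, 2028 and 1955), where wild type and knockout replicate 1 had weights of 5.54 and 6.14 against 0.21 to 0.76 for the other male libraries, and with the length slope in the model (18, 10 and 8). With 1 library left out it ran from 5 to 18 (2 to 11 higher, 2 to 7 lower), highest when wild type replicate 2 was omitted. Cyp2e1, Gm10503, Cyp4a10 and Cyp4a14 were called in all 6 of these fits. The difference between sexes, with 0 calls, had 1451 with no filter, 218 with DESeq2, 4417 with limma-voom, 7 with the length slope in the model, 0 to 2 with 1 library left out, and 6 without both libraries of lowest slope, a setting chosen after seeing the data. The cause of these moves was not tested.

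With the replicate block there were 6 calls (3 higher, 3 lower), with Fdps and Glo1 lost. Deviations of same-numbered libraries correlated at 0.06, -0.61 and -0.52, so the numbers were not taken to pair the mice. The male difference in length slope turned to -0.019 when wild type replicate 3 was omitted and to -0.028 when knockout replicate 3 was, with a highest value of 0.113. Of 1141 values of 68 named genes under alternatives 1048 kept direction and call. With 1 library left out Sult2a1 ran from 0 (no direction) to 3.39. Direction turned in 4 of these genes, with lowest and highest values of -1.53 and 0.116 (Hbb-bs), -1.17 and 0.110 (Hbb-bt), -0.53 and 0.0621 (Hnf4a), and -0.53 and 0.466 (Cela1). Cela1 was also at -0.23 with limma-voom and -0.061 without both libraries of lowest slope. Low counts limit Cyp4a31, Cyp4a14 in wild type, Fdps and Gm10503.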
